A study of Mus musculus with 12 samples.

Results

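The 9 genes described here encode the transcription factors that commit cells to the muscle lineage and drive their differentiation: Pax7, Six4, Myf5, Myod1, Myog, Myf6, Mef2a, Mef2c and Mef2d. They were taken by gene symbol from a table of 54532 mouse genes and were chosen with earlier results of these data known. They were split into specification factors (Pax7, Six4, Myf5 and Myod1) and differentiation factors (the other 5). RNA was sequenced from C2C12 cells, an established mouse myoblast line that differentiates into myotubes in low serum, kept here in growth medium. The serum level given for this medium is lower in the sample labels than in the study's methods. Its part in the results was not tested. All 4 groups, of 3 libraries labelled as biological replicates each, were transfected with siRNA at 30 nM and harvested after 48 h. The siRNA was a control (siCONTROL), targeted Keap1 (siKEAP1) or Ccnf (siCCNF), or combined these (siKEAP1/siCCNF). Whether 30 nM is the amount of each siRNA or their total in siKEAP1/siCCNF cells is not given in the sources used here. KEAP1 is the substrate adaptor through which the CUL3 ubiquitin ligase degrades the transcription factor NRF2, and CCNF (cyclin F) is a substrate adaptor of the CUL1 ligase. The study asked whether loss of CCNF alters the response of myoblasts to loss of KEAP1.

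Muscle identity is set by a cascade of transcription factors. PAX7 marks muscle stem cells and SIX4 is a homeodomain factor that acts upstream of the myogenic basic helix-loop-helix genes. MYF5 and MYOD1 commit cells to the lineage, and myogenin, the product of Myog, starts terminal differentiation. These basic helix-loop-helix factors pair with E proteins to bind E-boxes, and the MEF2 proteins bind beside them at muscle genes. MYF6 (MRF4) acts mainly in later myofibres.

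Sequencing depth lay between 18464209 and 37743198 counts per library. Keap1 was at 84.3 to 90.0 CPM (counts scaled to library size) in siCONTROL, at 12.3 to 12.8 in siKEAP1 and at 22.2 to 27.0 in siKEAP1/siCCNF libraries, so that Keap1 was lowered less deeply in the doubly depleted cells (log2 difference to siKEAP1 0.93, standard error 0.08, edgeR adjusted p = 1.07e-06). Ccnf was at 77.7 to 85.5 CPM in siCONTROL, at 56.4 to 64.9 in siKEAP1, at 19.7 to 21.3 in siCCNF and at 23.7 to 25.6 in siKEAP1/siCCNF libraries. Ccnf was thus also lower in siKEAP1 than in siCONTROL cells (log2 fold change -0.45, standard error 0.07, edgeR adjusted p = 0.000258). siCONTROL replicate 1 and siKEAP1/siCCNF replicate 3 stood apart from their groups. Across genes, which are not independent replicates, their deviations from the group mean fell with gene length (Pearson r = -0.305 and -0.276). All 6 myoblast markers were detected in every group, with summed levels of 1657 to 1793 CPM in siCONTROL, 1108 to 1130 in siKEAP1, 1020 to 1035 in siCCNF and 921 to 966 in siKEAP1/siCCNF cells. Among markers of other lineages, Adipoq, Plin1 and Lep had at most 3 counts in every library, while the adipocyte list of 6 genes, mostly Cebpa, summed to 55.5 to 60.0 CPM in siCONTROL, 79.7 to 84.6 in siKEAP1, 26.2 to 32.3 in siCCNF and 34.8 to 42.0 in siKEAP1/siCCNF libraries. Between siCONTROL and siKEAP1, mean Cebpa was 48.9 and 50.1 CPM. Pparg rose from 9.30 to 30.0 CPM (edgeR adjusted p = 2.07e-06) and Fabp4 from 0.0832 to 2.64 CPM (adjusted p = 2.45e-06). The osteoblast list, mostly Runx2, summed to between 78.8 and 104 CPM over the libraries, with Ibsp at 0 counts. Within it, mean Dmp1 fell from 19.75 CPM in siCONTROL to 1.2 in siCCNF (edgeR adjusted p = 1.39e-08) and 1.4 in siKEAP1/siCCNF cells (adjusted p = 2.56e-08). Bglap2 rose from 1.06 to 4.21 CPM in siKEAP1 cells (adjusted p = 1.82e-05). The macrophage list, mostly Cd68, summed to 1.16 to 2.12 CPM in siCONTROL, 5.67 to 10.7 in siKEAP1 and at most 4.09 in the other groups. Itgam was at 0 counts, and Ptprc and Adgre1 had at most 3 counts in every library. The endothelial list summed to at most 2.04 CPM. The part of these markers in the results was not tested. In bulk RNA, fewer cells of a type and less RNA per cell cannot be told apart.

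Of the 9 factors, 8 passed the filter on low counts and were tested in 1 edgeR quasi-likelihood fit over 15122 genes; a gene is called at a Benjamini-Hochberg adjusted p under 0.05. Mef2c was not tested. Myf6 and Myog passed the filter although some groups lay below its level, which is a property of the filter and not a result.

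Per kilobase of gene length, Myod1 was the highest of the 9 genes in each group. In siCONTROL cells it stood at 121 ± 12.7 FPKM (SD, n = 3), followed by Myf5 at 41.1 ± 4.0 and Myog at 30.1 ± 16.9 FPKM. The libraries of Myf5 and Myog overlapped. Pax7 (17.99 ± 2.04 FPKM), Mef2d (12.6 ± 1.29), Mef2a (9.22 ± 0.658) and Six4 (6.71 ± 0.602) followed without overlap between neighbours. Myf6 (0.391 ± 0.121 FPKM) and Mef2c (0.0100 ± 0.00992) were the lowest. In siKEAP1 cells Myog stood eighth, at 0.117 ± 0.0344 FPKM, below Myf6 at 0.293 ± 0.165 FPKM. In siCCNF and siKEAP1/siCCNF cells Mef2d, at 16.5 ± 0.430 and 17.2 ± 1.07 FPKM, took the second place, above Myf5 at 14.1 ± 0.117 and 13.2 ± 0.650 FPKM.

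**Figure D1:**
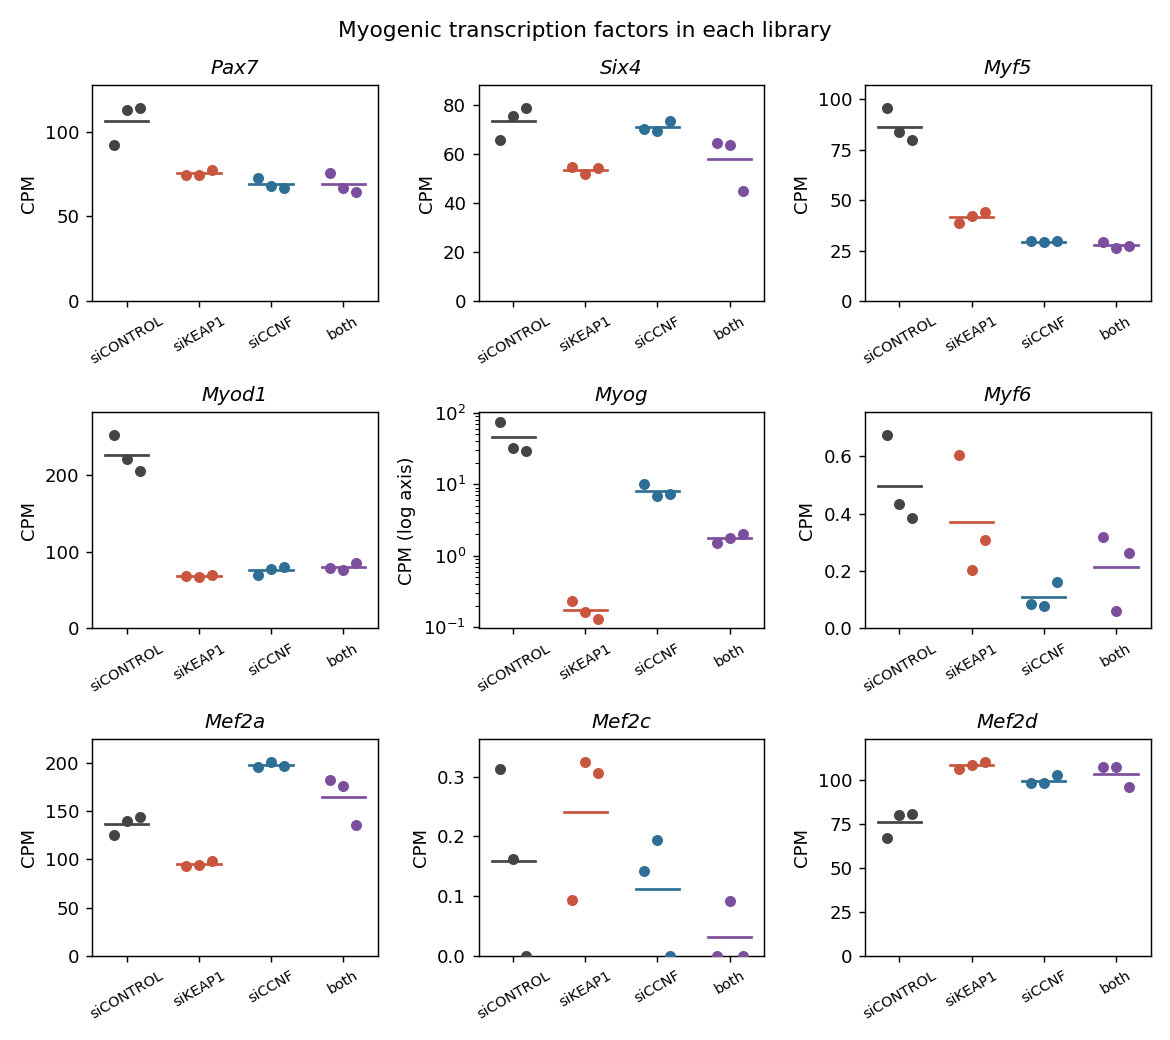
CPM (TMM-scaled) of the 9 factors in each of the 12 libraries; points are libraries in the order of replicates 1 to 3, lines are group means, "both" is siKEAP1/siCCNF, and the Myog axis is logarithmic. Myod1 lay at 206 CPM or above in siCONTROL libraries and at 85.9 CPM or below in the others, and Myog reached its lowest levels in siKEAP1 libraries.

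Myod1, whose product can by itself turn fibroblasts into muscle cells, was the factor with the most transcript and fell to about the same level after each depletion. Its gene (ENSMUSG00000009471) lies on chromosome 7 from 46376474 to 46379099 on the plus strand of GRCm38. It was measured at 253, 222 and 206 CPM in siCONTROL, 68.7, 67.1 and 69.9 in siKEAP1, 69.3, 78.3 and 80.2 in siCCNF, and 78.5, 76.1 and 85.9 CPM in siKEAP1/siCCNF libraries. No library of a depleted group came near the siCONTROL range. The log2 fold change was -1.73 for siKEAP1 (standard error 0.09, edgeR adjusted p = 8.02e-09), -1.58 for siCCNF (standard error 0.08, adjusted p = 1.86e-08) and -1.50 for both siRNAs (standard error 0.08, adjusted p = 3.85e-08). Myod1 was higher in siKEAP1/siCCNF than in siKEAP1 cells by 0.22 on the log2 scale (standard error 0.08, adjusted p = 0.0397), without overlap of the libraries. That call was lost when siKEAP1 replicate 1, 2 or 3 or siKEAP1/siCCNF replicate 1 or 3 was left out (0.18 to 0.24, adjusted p up to 0.109).

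Myf5 followed Myod1, with a smaller response to KEAP1 than to CCNF depletion. The gene (ENSMUSG00000000435) lies on chromosome 10 from 107482908 to 107486134 on the minus strand, next to Myf6. Its levels were 95.6, 83.8 and 79.6 CPM in siCONTROL, 38.9, 42.0 and 44.1 in siKEAP1, 29.6, 29.4 and 29.6 in siCCNF, and 29.2, 26.6 and 27.2 CPM in siKEAP1/siCCNF libraries. The siKEAP1 libraries all lay between those of siCONTROL and those of the CCNF-depleted groups. Myf5 fell by 1.05 on the log2 scale after siKEAP1 (standard error 0.08, edgeR adjusted p = 3.02e-07), by 1.55 after siCCNF (standard error 0.08, adjusted p = 1.39e-08) and by 1.64 after both (standard error 0.08, adjusted p = 1.08e-08). Within KEAP1-depleted cells, CCNF depletion lowered it further, by a log2 difference of -0.59 (standard error 0.08, adjusted p = 4.16e-05), so that Myod1 and Myf5 moved in opposite directions in this comparison. The ratio of Myod1 to Myf5 in FPKM ranged from 2.90 to 2.97 in siCONTROL, from 1.78 to 1.98 in siKEAP1, from 2.62 to 3.04 in siCCNF and from 3.01 to 3.53 in siKEAP1/siCCNF libraries.

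Pax7, the paired-box factor of muscle stem cells, was lower in all 3 depleted groups, by less than Myf5, Myod1 and Myog. Its levels were 92.2, 113 and 114 CPM in siCONTROL, 74.2, 74.2 and 77.6 in siKEAP1, 72.5, 68.2 and 66.7 in siCCNF, and 75.8, 66.4 and 64.1 CPM in siKEAP1/siCCNF libraries. The log2 fold changes were -0.50 (standard error 0.09, edgeR adjusted p = 0.000549), -0.62 (standard error 0.09, adjusted p = 7.35e-05) and -0.63 (standard error 0.09, adjusted p = 7.7e-05), and the depleted libraries did not overlap with siCONTROL. The 3 depleted groups lay close together. The difference between siKEAP1/siCCNF and siKEAP1 was -0.13 (95% interval -0.30 to 0.04) and that between siKEAP1/siCCNF and siCCNF -0.01 (-0.18 to 0.16), neither of them called.

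Six4 differed from the other specification factors in its response to siCCNF, for which no change was called. It was at 65.9, 75.5 and 78.7 CPM in siCONTROL, 54.8, 52.0 and 54.2 in siKEAP1, 70.3, 69.5 and 73.4 in siCCNF, and 64.7, 63.8 and 44.9 CPM in siKEAP1/siCCNF libraries. Its log2 fold change was -0.45 for siKEAP1 (standard error 0.12, edgeR adjusted p = 0.00748) and -0.05 for siCCNF (95% interval -0.27 to 0.18). For both siRNAs the value was -0.34 (standard error 0.12, adjusted p = 0.0293). siKEAP1/siCCNF replicate 3, 1 of the libraries that stood apart, was the lowest of all 12, and without it the log2 fold change was -0.19 (adjusted p = 0.0597). The call was also lost without siCONTROL replicate 2 or 3, with -0.33 and -0.29. Against siKEAP1 alone the log2 difference was 0.11 (95% interval -0.12 to 0.34, not called), and 0.26 without siKEAP1/siCCNF replicate 3 (adjusted p = 0.0134).

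Myog changed most of the 9 genes. Myogenin is the basic helix-loop-helix factor whose loss in mice leaves myoblasts that fail to form fibres. The gene (ENSMUSG00000026459) lies on chromosome 1 from 134289989 to 134292548 on the plus strand. To show the regulatory sequence beside these values, the promoter windows of Myog and Myf5 are given, 250 bases before to 50 after the start site in RefSeq (GRCm38.p6). With Myod1, which has no entry among the windows, these were the genes past 2-fold in all 3 comparisons with siCONTROL. Capitals mark E-boxes (CANNTG, both strands), which occurred in 72.3% of all 32851 windows in the table. The Myog window, chr1:134289754-134290053 on the plus strand, holds 2 of them, CACATG starting at position -138 and CAGTTG at position -12 from the start site. The Myf5 window, chr10:107486085-107486384 on the minus strand, holds 0.
Myog: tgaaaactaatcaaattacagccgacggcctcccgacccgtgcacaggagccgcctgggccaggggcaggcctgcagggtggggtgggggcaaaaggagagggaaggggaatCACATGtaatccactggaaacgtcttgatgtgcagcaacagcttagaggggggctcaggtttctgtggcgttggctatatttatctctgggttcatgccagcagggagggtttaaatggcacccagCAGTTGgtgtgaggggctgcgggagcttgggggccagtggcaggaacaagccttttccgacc
Myf5: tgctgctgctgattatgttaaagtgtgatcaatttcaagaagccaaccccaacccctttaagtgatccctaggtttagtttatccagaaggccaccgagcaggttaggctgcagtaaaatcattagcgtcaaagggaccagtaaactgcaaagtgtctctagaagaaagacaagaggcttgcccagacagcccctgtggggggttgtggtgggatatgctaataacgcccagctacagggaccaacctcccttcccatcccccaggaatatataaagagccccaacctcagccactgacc
Neither window held an exact match to the MEF2 consensus (3.19% of all windows) or the antioxidant response element core TGACNNNGC (12.4% of all windows), searched on both strands. The MEF2 consensus was searched as YTAWWWWTAR, with Y for C or T, W for A or T and R for A or G. The stretch ctatatttat in the Myog window departs from it at the last base only and was not counted. The result says only that these letters are not in these 300 bases. Of the 10 windows given for 7 of the factors, 1 held a MEF2 consensus, that of Mef2a, with CTAAAAATAG starting at position -2, and 3 held an E-box, that of Myog and 2 of Mef2c.

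In siCONTROL libraries Myog was at 74.6, 32.0 and 29.3 CPM, from 1665, 589 and 609 counts. In siKEAP1 libraries it was at 0.232, 0.162 and 0.132 CPM, from 5, 4 and 3 counts, at the level of the 3 counts that a library cannot tell from 0 (0.0795 to 0.163 CPM over the libraries). In siCCNF libraries it was at 10.2, 6.84 and 7.35 CPM and in siKEAP1/siCCNF libraries at 1.51, 1.76 and 2.02 CPM. The 4 groups did not overlap, and their order was siCONTROL, siCCNF, siKEAP1/siCCNF and siKEAP1. From summed counts, 12 against 2863, Myog was 265-fold lower in siKEAP1 than in siCONTROL cells, with an exact 95% interval for counting error alone of 152 to 514. The fitted log2 fold change was -7.99 (standard error 0.51, edgeR adjusted p = 6.88e-08) for siKEAP1, -2.48 (standard error 0.30, adjusted p = 1.86e-05) for siCCNF and -4.69 (standard error 0.36, adjusted p = 4.16e-07) for both. Depletion of both adaptors thus left Myog higher than depletion of KEAP1 alone, by a log2 difference of 3.30 (standard error 0.70, adjusted p = 0.00155) with 141 against 12 summed counts (counting interval of the ratio 5.55 to 19.8), and lower than depletion of CCNF alone (-2.21, standard error 0.36, adjusted p = 0.0034). As a share of the siCONTROL mean the levels were 0.387% in siKEAP1, 17.9% in siCCNF and 3.89% in siKEAP1/siCCNF cells. The weaker lowering of Keap1 itself in siKEAP1/siCCNF cells accompanied the difference from siKEAP1, and its part in it was not tested. siCONTROL replicate 1 held more than the other siCONTROL libraries, and without it the 3 log2 fold changes against siCONTROL were -7.43, -1.91 and -4.13, all called. With limma on log2(FPKM + 1), a scale that shrinks differences between low levels, the log2 difference between siKEAP1/siCCNF and siKEAP1 was 0.96 (adjusted p = 0.0163).

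Myf6 and Mef2c were near the detection limit. Myf6 (MRF4; ENSMUSG00000035923, chromosome 10 from 107492853 to 107494737, minus strand) had 15, 8 and 8 counts in siCONTROL, 13, 5 and 7 in siKEAP1, 3, 2 and 6 in siCCNF, and 8, 2 and 6 in siKEAP1/siCCNF libraries. The siCCNF libraries did not overlap with siCONTROL, with a log2 fold change of -2.12 (standard error 0.61, edgeR adjusted p = 0.0113). From the summed counts, 11 against 31, the level was 4.59-fold lower, with a counting interval of 2.25 to 10.1. For siKEAP1 the log2 fold change was -0.45 (95% interval -1.50 to 0.60) and for both siRNAs -1.28 (-2.41 to -0.15), neither of them called. Mef2c (ENSMUSG00000005583, chromosome 13), which encodes a MEF2 factor of differentiated muscle, had 7, 3 and 0 counts in siCONTROL, 2, 8 and 7 in siKEAP1, 5, 5 and 0 in siCCNF, and 0, 3 and 0 counts in siKEAP1/siCCNF libraries. In CPM the siKEAP1 libraries (0.0929 or more) lay just above the siKEAP1/siCCNF libraries (0.0924 or less), and the other groups overlapped. These nearest values rest on 2 counts in siKEAP1 and 3 in siKEAP1/siCCNF libraries, so that the counts themselves overlapped. Summed over the group, siKEAP1/siCCNF held 3 counts against 17 in siKEAP1, a ratio of 0.150 with a counting interval of 0.0282 to 0.519, and against 10 in siCONTROL, a ratio of 0.230 (0.0406 to 0.891). The intervals for siKEAP1 (1.53, 0.661 to 3.74) and siCCNF (0.614, 0.229 to 1.64) against siCONTROL included 1. These intervals leave out the spread between libraries, and with no filter on low counts, where edgeR did test Mef2c, no comparison was called (adjusted p from 0.0874 for siKEAP1/siCCNF against siKEAP1 to 0.795).

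The other MEF2 genes were well expressed and differed in direction. Mef2a (ENSMUSG00000030557, chromosome 7) was at 125, 140 and 144 CPM in siCONTROL, 93.6, 94.3 and 98.1 in siKEAP1, 196, 201 and 198 in siCCNF, and 183, 177 and 136 CPM in siKEAP1/siCCNF libraries. It fell in siKEAP1 cells (log2 fold change -0.52, standard error 0.10, edgeR adjusted p = 0.00083) and rose in siCCNF cells (0.54, standard error 0.10, adjusted p = 0.00047), so that each depletion alone moved it in an opposite direction. siKEAP1/siCCNF replicates 1 and 2 lay between siCONTROL and siCCNF, and replicate 3 within the siCONTROL range. The log2 fold change for both siRNAs, 0.28 (standard error 0.10, adjusted p = 0.0325), lost its call when any of 9 libraries was left out (siCONTROL replicates 1 and 2, siKEAP1 replicates 1 and 2, all siCCNF replicates, siKEAP1/siCCNF replicates 1 and 2), with values from 0.20 to 0.29 and adjusted p up to 0.148. Against siKEAP1, the doubly depleted cells held more Mef2a, by 0.79 on the log2 scale (standard error 0.10, adjusted p = 1.79e-05).

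Mef2d (ENSMUSG00000001419, chromosome 3), another MEF2 gene expressed in myoblasts, was higher in all 3 depleted groups. It was at 66.9, 80.0 and 80.9 CPM in siCONTROL, 107, 108 and 110 in siKEAP1, 98.2, 98.2 and 103 in siCCNF, and 108, 108 and 96.0 CPM in siKEAP1/siCCNF libraries. The log2 fold changes were 0.51 (standard error 0.08, edgeR adjusted p = 0.000147), 0.39 (standard error 0.08, adjusted p = 0.000939) and 0.45 (standard error 0.08, adjusted p = 0.000379), without overlap with siCONTROL. The ratio of Mef2a to Mef2d in FPKM ranged from 0.712 to 0.764 in siCONTROL, from 0.355 to 0.363 in siKEAP1, from 0.782 to 0.835 in siCCNF and from 0.576 to 0.692 in siKEAP1/siCCNF libraries. Mef2a shares genomic bases with Lysmd4 on the other strand (211 to 442 counts) and, on its own strand, with Gm44667 (8 to 29 counts in siCONTROL, 11 to 15 in siKEAP1, 31 to 90 in siCCNF and 7 to 65 in siKEAP1/siCCNF libraries) and Gm44668 (at most 1 count). The part of these genes in the Mef2a values was not tested. Mef2d shares bases with the antisense gene 1700113A16Rik (1 to 29 counts), and whether reads were counted by strand is not given in the sources used here. Of all 50-base stretches of their annotated transcripts, 5.39% for Mef2a, 7.81% for Mef2d and 0.936% for Six4 also occurred in transcripts of other genes. The value was 0% for the other 6 factors, and 0 stretches were shared among the 9.

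**Figure D2:**
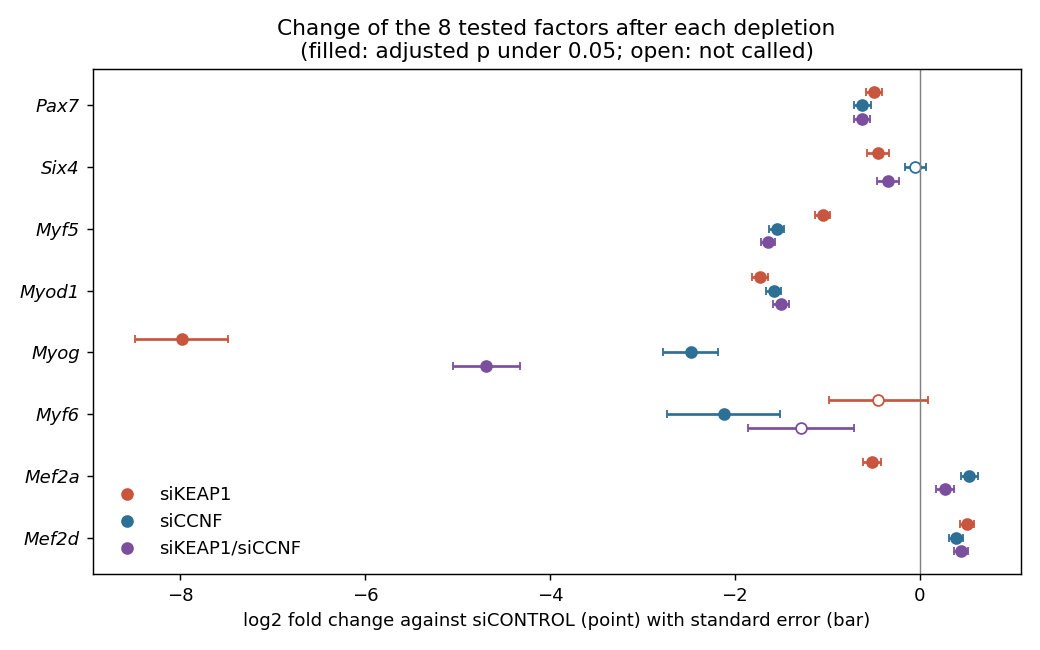
Log2 fold change against siCONTROL (points) with its standard error (bars) for the 8 tested factors in siKEAP1, siCCNF and siKEAP1/siCCNF cells; filled points were called at an adjusted p under 0.05. Pax7, Myf5, Myod1 and Myog lay below 0 and Mef2d above 0 in all 3 comparisons, and Mef2a had opposite signs after siKEAP1 (-0.52) and siCCNF (0.54).

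Counted together, 6 of the 8 tested factors fell in siKEAP1 cells and 1 rose, beside 20.2% and 20.4% of all tested genes called lower and higher. In siCCNF cells 5 fell and 2 rose (25.5% and 22.5% of all genes). In siKEAP1/siCCNF cells 5 fell and 2 rose (23.6% and 20.6%). With a change over 2-fold also required, 3 factors passed for siKEAP1 (11.5% of all genes), 4 for siCCNF (11.4%) and 3 for both (10.3%), namely Myf5, Myod1 and Myog in each and Myf6 after siCCNF. The median log2 fold change of the 4 specification factors was -0.77, -1.08 and -1.06 in the 3 comparisons, that of the 4 tested differentiation factors -0.48, -0.86 and -0.50, and that of all genes tested -0.01, 0.01 and 0.01. Both classes spanned a wide range, from -1.73 to -0.45 for specification and from -7.99 to 0.51 for differentiation factors after siKEAP1, with Myog and Mef2d at the ends of the latter.

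Myod1 was set against Myog, the step from commitment to differentiation. In FPKM, Myod1 exceeded Myog 2.72 to 5.66 times in siCONTROL, 5.48 to 9.19 times in siCCNF, 34.2 to 41.8 times in siKEAP1/siCCNF and 238 to 427 times in siKEAP1 libraries. The siCONTROL and siCCNF ranges overlapped. The siKEAP1 values rest on 3 to 5 Myog counts per library and are imprecise; from summed counts per gene length the ratio there was 317, with a counting interval of 181 to 613. Myod1 was at 30.2%, 33.4% and 35.3% of its siCONTROL mean in siKEAP1, siCCNF and siKEAP1/siCCNF cells, a far narrower range than that of Myog.

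Adding CCNF depletion to KEAP1 depletion raised 3 factors (Myod1, Myog and Mef2a, beside 24.1% of all genes) and lowered Myf5 (26.9%), and Myog alone passed 2-fold (14.5%). Adding KEAP1 depletion to CCNF depletion raised 0 factors by edgeR (3.00% of all genes), with 0 also at an unadjusted p under 0.05 and by DESeq2 and limma, and lowered Myog (2.19%), which also passed 2-fold (0.727%). The interaction, which subtracts the siKEAP1 effect without CCNF depletion from that with CCNF depletion, was positive for Pax7, Myf5, Myod1 and Myog (10.6% of all genes) and negative for Mef2d (10.5%), and over 2-fold for Myod1 and Myog (6.19%). For Myog it was 5.78 on the log2 scale (standard error 0.72, edgeR adjusted p = 0.000122; 3.13 with limma on log2(FPKM + 1), adjusted p = 0.000325) and for Myod1 1.81 (standard error 0.12, adjusted p = 1.26e-06). For Myf5 it was 0.96 (standard error 0.11, adjusted p = 7.64e-05), for Pax7 0.49 (standard error 0.12, adjusted p = 0.0137) and for Mef2d -0.46 (standard error 0.11, adjusted p = 0.00935). Keap1 itself had an interaction of 0.98 (standard error 0.11, adjusted p = 6.99e-05), since siKEAP1 lowered it less in CCNF-depleted cells. The part of this weaker lowering in the interactions of the factors was not tested. Between siKEAP1/siCCNF and siCCNF cells the log2 difference was 0.08 for Myod1 (95% interval -0.09 to 0.24), -0.09 for Myf5 (-0.25 to 0.06) and 0.06 for Mef2d (-0.09 to 0.21), and 0 of these 3 were called. It was -0.30 for Six4 (-0.52 to -0.07) and -0.26 for Mef2a (-0.45 to -0.07), not called either. Six4 gained an edgeR call with the gene length trend removed (-0.24, adjusted p = 0.0448). Mef2a gained a call with both libraries that stood apart left out (-0.145, adjusted p = 0.0204). For Six4 and Mef2a the interaction was not called (0.15 and 0.25), but it was called with both libraries that stood apart left out (0.38, adjusted p = 0.000844, and 0.44, adjusted p = 2.32e-05), and for Mef2a without siKEAP1/siCCNF replicate 3 (0.38, adjusted p = 0.00961).

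**Figure D3:**
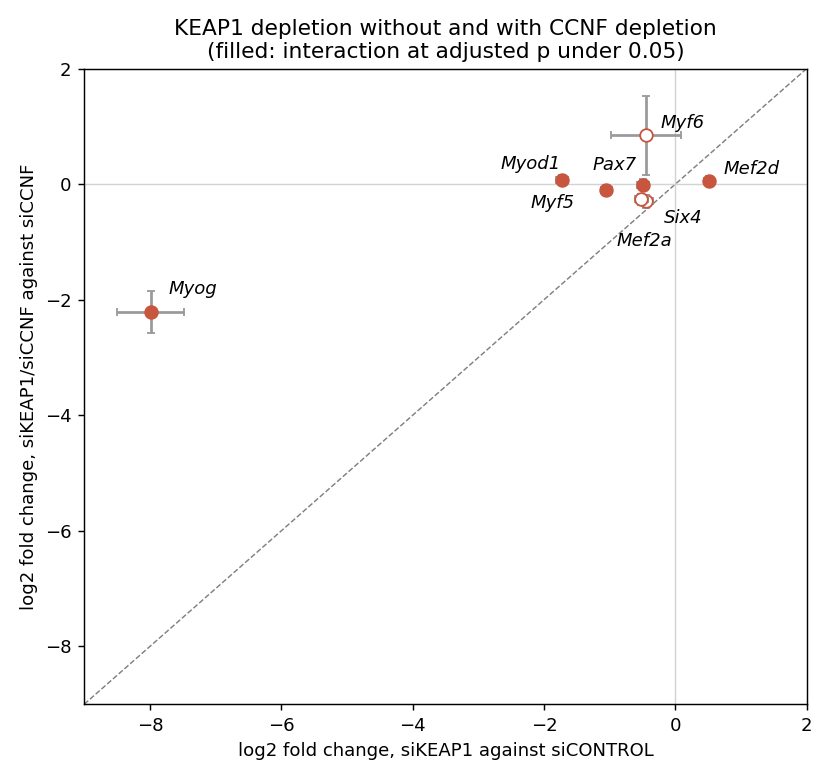
Log2 fold change of siKEAP1 against siCONTROL (horizontal axis) and of siKEAP1/siCCNF against siCCNF (vertical axis), with standard errors, for the 8 tested factors; the dashed line marks equal effects and filled points have an interaction called at an adjusted p under 0.05. Myog lay at -7.99 and -2.21, and Myod1, Myf5, Pax7 and Mef2d lay near 0 on the vertical axis.

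Of 40 listed differentiation genes known as targets of myogenin and MEF2, 31 were tested. The list shares Cdh15, Des and Itga7 with the myoblast markers. In siKEAP1 cells 28 fell and 1 rose (20.2% and 20.4% of all genes), in siCCNF cells 26 fell (25.5%) and in siKEAP1/siCCNF cells 27 fell (23.6%), with medians of -3.22, -1.44 and -2.61 on the log2 scale beside -0.01, 0.01 and 0.01 for all genes. The first median was -3.12 with 3 counts over the siKEAP1 group put in place of 0 for Cav3. None of them rose in the latter 2 comparisons by edgeR, with 0 at an unadjusted p under 0.05 and 0 by DESeq2 or limma. After siKEAP1 the log2 fold change was -7.39 for Actc1 (cardiac actin; 5 against 821 summed counts), -5.88 for Rbm24 (an RNA-binding splicing regulator) and -5.10 for Myh3 (embryonic myosin heavy chain; 9 against 293 counts). Cav3 (caveolin of muscle), which fell as well, had 0 counts in every siKEAP1 library and 15 over siCONTROL. With 3 counts over the group put in place of 0, it was 5.56-fold lower, a value that leaves out counting error. The gene that rose there was Tnnt2 (cardiac troponin T), by 1.30. After siCCNF it was -3.10 for Mymk (myomaker, needed for fusion), -2.89 for Tnni1 (slow troponin I), -2.72 for Chrnd (acetylcholine receptor delta subunit) and -2.70 for Rbm24. After both siRNAs it was -5.07 for Mymk, -4.82 for Mybph (4 against 96 counts) and -4.30 for Mymx (6 against 98 counts). Smyd1, a methyltransferase of muscle, fell to 2 counts over the group, against 78 in siCONTROL (ratio 0.0196, counting interval 0.00233 to 0.0733). Between siKEAP1/siCCNF and siKEAP1 cells, 9 of the 31 genes were higher (24.1% of all genes), among them Actc1 by 3.52 on the log2 scale. Cav3 was 7.09-fold higher with the same 3 counts in place of 0, again without counting error. In this comparison 5 genes were lower (26.9%), Tnnt2 by a log2 difference of -2.39 and Chrnd by -2.12. The median was 0.14, also with the 3 counts for Cav3 (0.0013 for all genes). Against siCCNF, 7 were lower (2.19% of all genes; Actc1 -2.22, Myl1 -2.06 and Mymk -1.97 among them, and Smyd1 with 2 against 52 counts, ratio 0.0479, counting interval 0.00565 to 0.182) and 0 higher by edgeR, also with 0 at an unadjusted p under 0.05 and 0 by DESeq2 or limma, with a median of -0.87 (0.0032 for all genes). The interaction was called for 19 of the 31, 18 of them positive (10.6% of all genes) and 1 negative (10.5%). In siCONTROL replicate 1, which had the most Myog, 28 of the 31 genes were the highest of the group, beside 42.8% of all genes, and their median deviation from the group mean was 0.58 on the log2 scale.

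**Figure D4:**
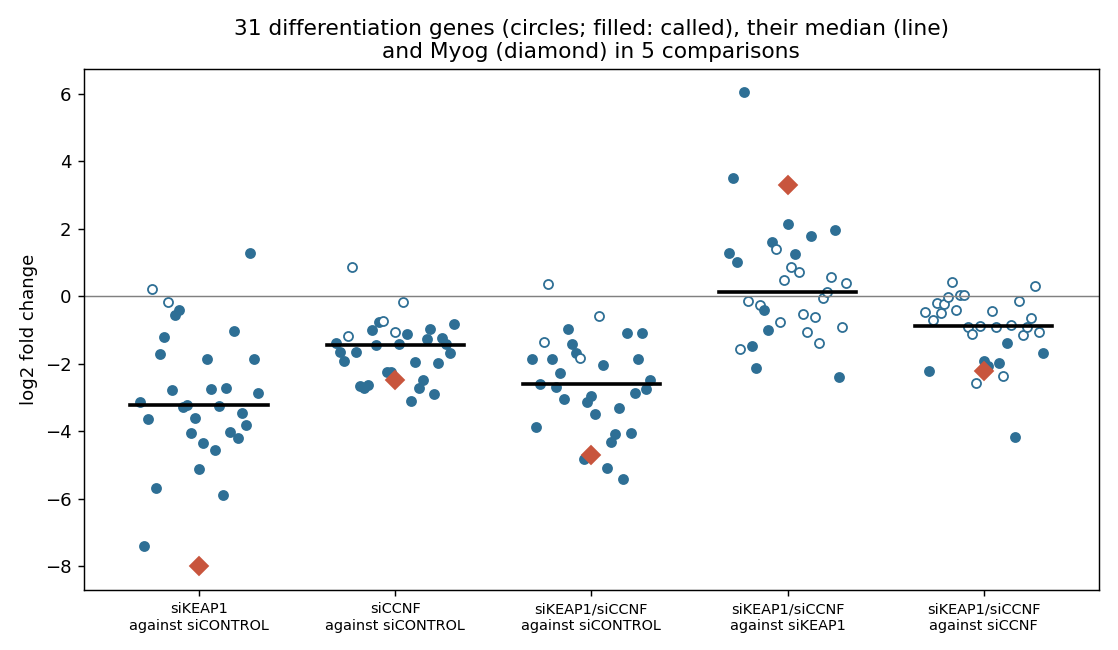
Log2 fold changes of the 31 tested differentiation genes (circles, filled where called), their median (line) and Myog (diamond) in 5 comparisons. The medians were -3.22, -1.44 and -2.61 against siCONTROL, 0.14 against siKEAP1 and -0.87 against siCCNF, and Myog lay below the median in each comparison except that with siKEAP1. Genes with few or, as Cav3 in siKEAP1, 0 counts in a group are drawn at their fitted values, which are no bounds.

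Of 23 listed partners and repressors of the myogenic factors, 21 were tested. In siKEAP1, siCCNF and siKEAP1/siCCNF cells 12, 11 and 13 of them fell (20.2%, 25.5% and 23.6% of all genes) and 2, 4 and 3 rose (20.4%, 22.5% and 20.6%), with median log2 fold changes of -0.34, -0.31 and -0.55, beside -0.01, 0.01 and 0.01 for all genes. Heyl, a Notch effector that represses myogenic factors, fell in each, with log2 fold changes of -3.12, -4.07 and -5.00. Bhlhe40 (-1.70) and Mdfi (-1.58), an inhibitor that holds MyoD in the cytoplasm, fell after siKEAP1. Bhlhe40 also fell after siCCNF (-0.41) and after both (-1.375), where Mdfi was not called. Hdac9, a class II deacetylase that represses MEF2, rose after siKEAP1 (1.60, edgeR adjusted p = 0.0499) at low mean levels, from 0.279 to 0.851 CPM. Among the other listed class II deacetylases, Hdac4 (-0.55) and Hdac5 (-0.34) fell, and Hdac7 (-0.16) was not called. After siCCNF, Hes1 (-1.22) and Snai2 (-1.04) fell. Both also fell after siKEAP1 (-1.10 for Hes1 and -0.56 for Snai2) and after both siRNAs (-1.43 and -1.08). Id4 rose after siCCNF (1.03) at low mean levels, from 1.02 to 2.06 CPM, while the more abundant Id1 (-0.96), Id2 (-1.03) and Id3 (-0.58) fell. Id1 and Id2, which sequester E proteins, were lower in siKEAP1/siCCNF than in siKEAP1 cells (-0.93 and -0.94), and Mdfi was higher (1.72). Against siCCNF, 2 of the 21 were lower (2.19% of all genes), Bhlhe40 (-0.97) and Zeb1 (-0.85).

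Of 22 upstream factors and coactivators, 17 were tested. They fell in 7, 9 and 9 cases (20.2%, 25.5% and 23.6% of all genes) and rose in 2, 3 and 3 (20.4%, 22.5% and 20.6%) in the comparisons with siCONTROL, with medians of -0.16, -0.31 and -0.29, beside -0.01, 0.01 and 0.01 for all genes. Vgll2, a cofactor of TEAD proteins in muscle, fell in each (-3.77, -1.90 and -3.11 on the log2 scale), as did Mamstr (-2.21, -1.70 and -1.93), a coactivator of MEF2. Rb1, the retinoblastoma gene, fell after siCCNF (-1.47) and after both (-1.37). Between siKEAP1/siCCNF and siCCNF cells, 0 of the 17 were called by edgeR, DESeq2 or limma, and 1 was lower at an unadjusted p under 0.05 by edgeR.

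The genes whose log2 CPM followed Myog most closely over the 12 libraries were Rac1 (Pearson r = 0.995), Lfng (0.992) and Klhl41 (0.988), with r of 0.708, 0.786 and 0.948 for the deviations from the group means. For Myod1 they were Lmnb2 (0.989), Nde1 (0.989) and Anxa6 (0.984), and for Myf5 Csnk1d (0.993), Retreg1 (0.992) and Ralb (0.991). These values describe the 12 libraries, which share 4 groups, and carry no test. The deviations within groups followed Myf5 less closely, with r of 0.125, 0.398 and 0.217.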

How the data were processed

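The deposited table gave, for 12 libraries of polyadenylated RNA, counts per gene and FPKM, both made by the authors. The submitters' processing notes name HISAT2 and GRCm39, but the gene coordinates of all 9 factors, and of 98.3% of 54409 genes with an identifier in GENCODE M21, were those of GRCm38, which is used here. The counting tool, annotation and strand setting are not given in the sources used here. The authors' own comparison columns hold group means of normalized counts (signal), log2 fold changes and p-values and were deposited with the table but not used.

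Counts were fitted with edgeR (4.0.16) by the quasi-likelihood method with TMM scaling, filterByExpr and a mean for each of the 4 groups, keeping 15122 genes, with Benjamini-Hochberg adjustment over all of them. The test was checked on simulated data. CPM used TMM-scaled library sizes, and log2 CPM a prior count of 2. Floors of 3 counts and 95% intervals of summed counts cover counting error only. FPKM served to compare genes. DESeq2 (1.42.0), limma (3.58.1) on log2(FPKM + 1), other filters and scalings, a gene length trend and left-out libraries were tried as alternatives. Deviations from the group means correlated between libraries of the same replicate number with r from -0.268 to 0.204. Libraries of different numbers were not compared, so these values cannot tell whether the numbers pair the samples. The main fit did not pair them, and the replicate number as a block was an alternative.

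The genes named beyond the 9 factors were, in each list and comparison, those among the 4 largest called changes without overlap of the libraries, and the 3 genes most alike over the libraries for Myog, Myod1 and Myf5. Tnnt2 and the Hdac genes in siKEAP1 cells and Id1, Id2 and Id3 in siCCNF cells were chosen after their values were seen. So were single values of the list genes given in other comparisons. Members and lists were chosen with earlier results of these data known. Promoter windows came from RefSeq (GRCm38.p6), with 7 of the 9 factors matched, and shared transcript stretches from GENCODE M21.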

Additional observations from a re-analysis of the deposited data

Results flagged for a closer look

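For 5 factors the effect of siKEAP1 differed between CCNF-depleted and control cells, by a test of the difference itself (edgeR's interaction term, Benjamini-Hochberg adjusted over all genes). The difference, on the log2 scale, was 5.78 for Myog, 1.81 for Myod1, 0.96 for Myf5, 0.49 for Pax7 and -0.46 for Mef2d. The depletion itself also differed: siKEAP1 changed Keap1 by -2.80 in control cells and by -1.82 in CCNF-depleted cells (edgeR interaction 0.98, adjusted p = 6.99e-05). Its part in these differences was not tested.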

How the results depend on the processing

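Of 983 recomputed values of the factors, 949 kept their direction and side of the threshold, 24 lost their call, 10 gained one and 0 reversed. With a change over 2-fold also required, the number of factors called was 3 instead of 7 for siKEAP1, 4 instead of 7 for siCCNF, 3 instead of 7 for both, 1 instead of 4 for both against siKEAP1 and 2 instead of 5 for the interaction. Against siCCNF, 1 factor was called, 0 where at least 10 counts were required in every library, which removes Myog, and 2 with both libraries that stood apart left out or with the gene length trend removed. With the replicate number as a block, the counts were 7, 7, 6, 3, 1 and 5, and the calls lost were those of Mef2a in siKEAP1/siCCNF cells and of Myod1 between siKEAP1/siCCNF and siKEAP1 cells. The latter was also lost on total library sizes (0.21) and with limma (0.21). Six4 and Mef2a in siKEAP1/siCCNF cells lost their calls when only the compared groups were fitted (-0.34 and 0.28, adjusted p = 0.116 and 0.118). The cause of these changes was not tested. Depth limits Myf6, Mef2c and, in siKEAP1 cells, Myog, whose fitted fold changes there rest on 3 to 5 counts per library; with limma on log2(FPKM + 1) its log2 fold change was -4.67 for siKEAP1, -3.71 for both siRNAs, 0.96 for both against siKEAP1 and 3.13 for the interaction, all called.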
